A study of Homo sapiens with 8 samples.

Results

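HLA class I molecules carry peptides from inside the cell to its surface, where T cells and natural killer cells read them. The set described here holds 9 genes of that machinery: the heavy chain genes HLA-B, HLA-C, HLA-E and HLA-F, the light chain gene B2M, the peptide transporter genes TAP1 and TAP2, the tapasin gene TAPBP, and NLRC5, the transactivator of class I genes. They were chosen with earlier results of these data known and were looked up by symbol. All 9 were found among 58302 genes of the count table and among the 18973 genes tested. T24, a human bladder cancer cell line, was grown as xenograft tumours, and whole tumours were sequenced. In 4 libraries the T24 cells carried enforced expression of DDR1, a receptor tyrosine kinase activated by collagen (the DDR1 group), and in 4 libraries they were control cells. The labels used here name neither the vector, nor the mouse host, nor whether a line is 1 clone, and they do not say that libraries came from separate animals. The p-values thus cover library-to-library spread only, and some of it may be technical.

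As background, a class I heavy chain pairs with beta-2 microglobulin in the endoplasmic reticulum. The TAP1 and TAP2 heterodimer pumps in cytosolic peptides, and tapasin bridges the transporter to the empty heavy chain so that a peptide can be loaded. HLA-B and HLA-C are classical, highly polymorphic chains, while HLA-E and HLA-F are non-classical chains with little polymorphism. NLRC5 acts at class I promoters together with RFX and NF-Y factors and is itself induced by interferon.

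Libraries held 13716286 to 32271031 expected counts, the authors' estimated counts per gene. Titles of all 4 DDR1 libraries end in a lane code 8, those of control replicates 1 and 2 in lane code 7, and those of control replicates 3 and 4 in none. Lane and group therefore cannot be told apart. DDR1 replicates 2, 3 and 4 share a title prefix, as do control replicates 3 and 4. DDR1 itself averaged 435 ± 274 CPM (counts scaled to library size with TMM factors) in the DDR1 group and 152 ± 42.3 CPM in controls (SD, n = 4 each; exact two-sided permutation p = 0.0571, where 0.0286 is the smallest possible). The library labelled DDR1 replicate 1 held 159 CPM of DDR1, inside the control range of 110 to 210 CPM, so results are also given without it. Of 10 markers of the line 2, UPK1B and UPK2, averaged under 1 CPM, and others varied widely. VIM, the highest on average, lay between 150 and 1096 CPM in DDR1 libraries and between 188 and 564 CPM in controls. KRT18 lay between 251 and 572 CPM in DDR1 libraries and between 397 and 529 CPM in controls. EPCAM lay between 6.72 and 86.0 CPM in DDR1 libraries and between 12.4 and 44.6 CPM in controls. KRT19 averaged 394 ± 201 CPM in the DDR1 group and 203 ± 74.4 CPM in controls. Its log2 fold change was 0.95 (edgeR unadjusted p = 0.0363, adjusted p = 0.9998). It was the only 1 of 9 tested line markers higher at an unadjusted p under 0.05, against 1.93% of all genes. Of the 9, 6 had a log2 fold change above 0 and 3 below. Of 14 leukocyte markers 11 averaged under 1 CPM, and PTPRC, the pan-leukocyte marker, did not exceed 0.167 CPM in any library.

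The promoters are shown first because class I genes are known for a shared promoter module. RefSeq promoters (GRCh38.p14) were available for 7 of the 9 genes, and the 250 bases before the start are printed for HLA-B and HLA-C, the classical chains of the set, TAP1, B2M and TAPBP. Of the 2 TAP1 windows, the one that holds the response element is printed. They are reference sequence, not that of T24. Capitals mark, on either strand, the interferon-stimulated response element (GAAA, any 2 bases, GAAA), the CCAAT box bound by NF-Y and the X2-box-like TGACGC. These motifs were chosen after the sequences were seen, and further patterns, mainly versions of the kB motif, were tried and are not shown. Overlapping matches merge into 1 run of capitals.
HLA-B, chr6:31357180-31357429, minus strand: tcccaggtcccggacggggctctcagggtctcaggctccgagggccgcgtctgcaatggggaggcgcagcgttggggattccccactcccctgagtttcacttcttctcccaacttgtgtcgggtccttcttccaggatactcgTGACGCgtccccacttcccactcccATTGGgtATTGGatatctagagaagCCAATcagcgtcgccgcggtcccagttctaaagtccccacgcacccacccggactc
HLA-C, chr6:31272093-31272342, minus strand: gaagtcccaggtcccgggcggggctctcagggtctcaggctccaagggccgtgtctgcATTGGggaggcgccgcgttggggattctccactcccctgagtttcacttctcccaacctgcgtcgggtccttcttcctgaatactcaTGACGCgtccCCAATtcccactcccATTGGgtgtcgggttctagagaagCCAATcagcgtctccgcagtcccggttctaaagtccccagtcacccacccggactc
TAP1, chr6:32853705-32853954, minus strand: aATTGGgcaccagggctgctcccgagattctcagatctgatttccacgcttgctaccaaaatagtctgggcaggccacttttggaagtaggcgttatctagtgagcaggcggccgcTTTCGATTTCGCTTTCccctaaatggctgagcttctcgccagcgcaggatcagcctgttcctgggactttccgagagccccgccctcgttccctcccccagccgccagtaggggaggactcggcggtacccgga
B2M, chr15:44711267-44711516, plus strand: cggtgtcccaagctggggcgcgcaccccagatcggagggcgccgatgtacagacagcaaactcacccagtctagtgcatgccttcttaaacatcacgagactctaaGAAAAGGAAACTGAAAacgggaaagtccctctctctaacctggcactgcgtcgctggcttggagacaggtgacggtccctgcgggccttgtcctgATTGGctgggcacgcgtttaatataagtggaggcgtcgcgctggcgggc
TAPBP, chr6:33314079-33314328, minus strand: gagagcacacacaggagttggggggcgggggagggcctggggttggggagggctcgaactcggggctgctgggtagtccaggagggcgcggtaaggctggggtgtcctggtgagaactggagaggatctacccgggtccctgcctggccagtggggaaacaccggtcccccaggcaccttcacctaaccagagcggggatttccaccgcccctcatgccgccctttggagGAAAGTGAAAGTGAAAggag

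The HLA-B and HLA-C windows were 89.0% identical over 254 alignment columns, and HLA-F was 80.4% identical to HLA-B. The 7 genes have 8 windows in the table, TAP1 having 2. The response element was found in 5 of the 8 (1 each of HLA-F, TAP1, TAP2, TAPBP and B2M), and 3.02% of all 35116 promoter windows hold it. Its exact letters are not in the HLA-B and HLA-C windows. CCAAT was found in 5 of the 8, and in 32.0% of all windows, and TGACGC in 3 of the 8, and in 7.67% of all windows. Since the motifs were picked on these sequences, these shares describe the windows and are no test of enrichment. A match describes letters and does not show binding.

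None of the 9 genes passed at an adjusted p under 0.05 in edgeR's quasi-likelihood test of the DDR1 group against controls, and neither did any of the 18973 genes (0.0%). Of the 9, 8 had a log2 fold change below 0, against 50.5% of all genes tested, and the median over the 9 was -0.42, against -0.00 over all genes. Among those 8, B2M and TAPBP lay at -0.04. The genes were chosen with earlier results of these data known, and several vary together. Shares over the set thus describe it and are no test. At an unadjusted p under 0.05 the count was 0 of 9, against 4.17% of all genes (1.93% higher and 2.24% lower). DESeq2 called 0 of the 9, against 0.0791% of all genes. The 2 groups overlapped for each of the 9 genes, against 2.4% of all genes with no overlap. In bulk tumours, fewer cells of a type and less RNA per cell cannot be told apart.

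**Figure D1:**
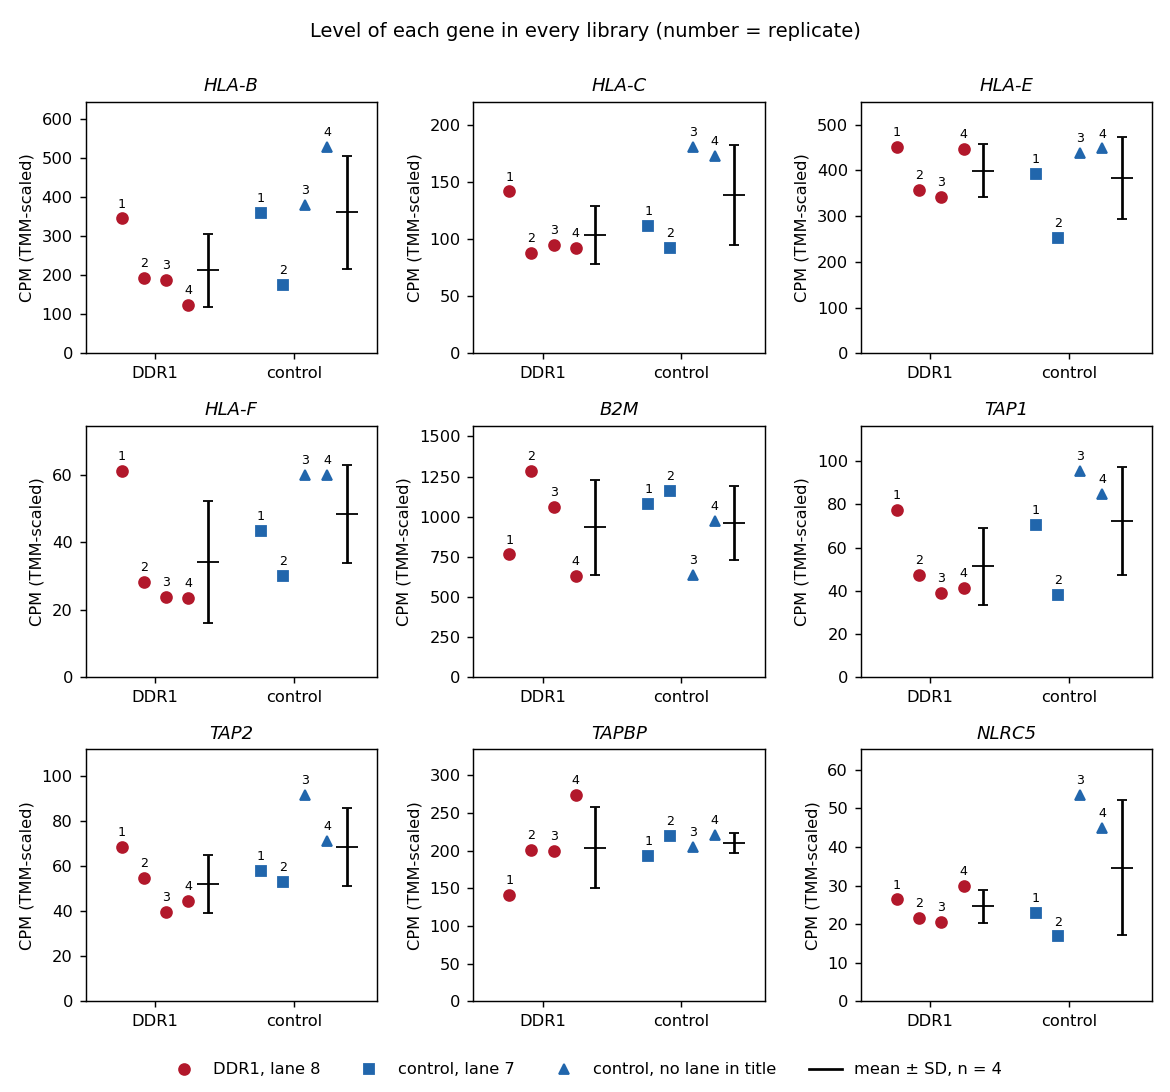
TMM-scaled CPM (vertical axis, from 0) of each of the 9 genes in the 4 DDR1 and 4 control libraries, with replicate numbers; black marks give mean ± SD. HLA-B lies between 125 and 346 CPM in DDR1 libraries and between 175 and 529 CPM in controls, and the 2 controls with no lane code stand above the 2 of lane 7 for 7 of the 9 genes.

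HLA-B (ENSG00000234745, GRCh38 chromosome 6, 31269491 to 31357188, minus strand) had the lowest fold change of the set. It held 346, 193, 189 and 125 CPM in DDR1 replicates 1 to 4, against 359, 175, 380 and 529 CPM in control replicates 1 to 4. In these values 3 DDR1 libraries and control replicate 2 were low, DDR1 replicate 1 lay beside control replicates 1 and 3, and control replicate 4 was highest. The log2 ratio of the DDR1 group over controls was -0.76 ± 0.38 (SE; edgeR adjusted p = 0.9998, unadjusted p = 0.0727).

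HLA-C (ENSG00000204525, chromosome 6, 31268749 to 31272130, minus strand) held 142, 87.8, 95.1 and 92.6 CPM in DDR1 replicates 1 to 4 and 112, 92.6, 181 and 173 CPM in control replicates 1 to 4. DDR1 replicate 1 lay above 2 of the controls, and the other DDR1 libraries lay close to control replicate 2. The fitted log2 fold change was -0.42 ± 0.26 (SE; edgeR adjusted p = 0.9998). Levels per kb divide CPM by all annotated exon bases of a gene, not by the length of the transcripts expressed. Comparisons between genes on this scale are therefore rough. Per kb of annotated exon HLA-B averaged 69.9 ± 30.8 in the DDR1 group and 118 ± 47.6 in controls. HLA-C averaged 41.7 ± 10.2 in the DDR1 group and 55.6 ± 17.5 in controls.

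HLA-E (chromosome 6, 30489467 to 30494205, plus strand), the chain that presents leader peptides of other class I chains to natural killer receptors, held 451, 357, 342 and 447 CPM in DDR1 replicates 1 to 4. In control replicates 1 to 4 it held 392, 253, 438 and 448 CPM. The groups lay over the same range, and only control replicate 2 stood below the rest. edgeR gave a log2 fold change of 0.06 ± 0.21 (SE; edgeR adjusted p = 0.9998), and it ran from -0.09 to 0.16 with 1 library left out.

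HLA-F (chromosome 6, 29722775 to 29738528, plus strand), the least abundant heavy chain here, held 61.1, 28.2, 23.8 and 23.5 CPM in DDR1 replicates 1 to 4. In control replicates 1 to 4 it held 43.3, 30.0, 59.8 and 59.9 CPM. The library labelled DDR1 replicate 1 was the highest of all 8, and the other 3 DDR1 libraries were below every control. The log2 ratio of the DDR1 group over controls was -0.50 ± 0.35 (SE; edgeR adjusted p = 0.9998). Without DDR1 replicate 1 it was -0.94 ± 0.26 (SE; unadjusted p = 0.006, edgeR adjusted p = 0.9371). That fit leaves out the highest library, and the DDR1 libraries left share a title prefix.

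Summed over these 4 heavy chain genes, DDR1 libraries held 1000, 666, 651 and 688 CPM, and controls held 906, 550, 1059 and 1209 CPM, in replicate order. The mean was 751 ± 167 CPM in the DDR1 group and 931 ± 282 CPM in controls (SD, n = 4 each), a log2 ratio of -0.31. Within the sum HLA-B took 27.7% ± 6.88 in the DDR1 group and 37.8% ± 5.11 in controls, and HLA-E took 54.0% ± 8.21 in the DDR1 group and 41.9% ± 3.75 in controls. In DDR1 replicate 4 HLA-B made up 18.2% and HLA-E 64.9% of the sum, while in control replicate 4 HLA-B made up 43.7% and HLA-E 37.0%. These shares do not depend on scaling between libraries, and the groups overlapped for each of them.

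**Figure D2:**
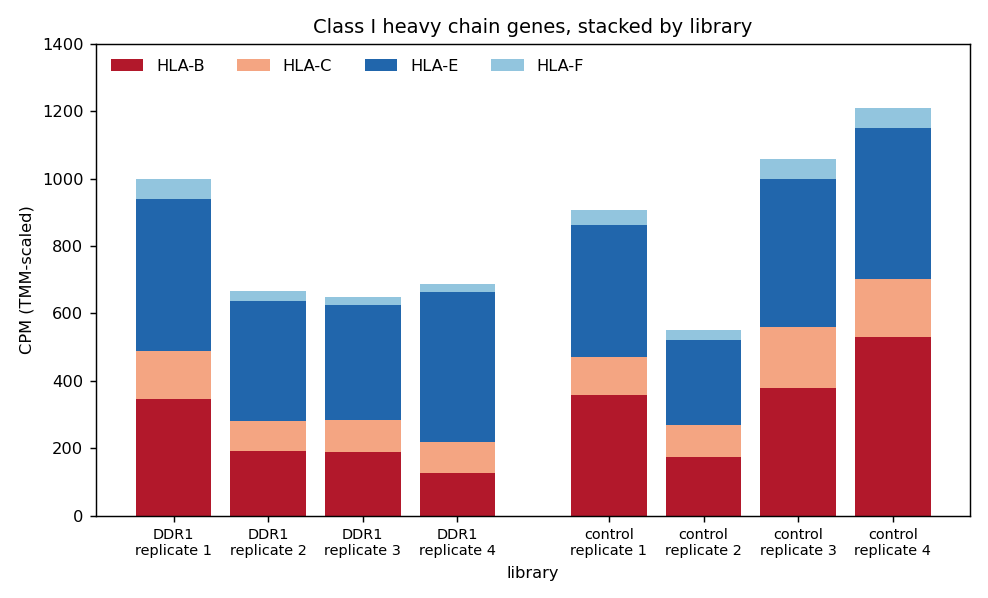
TMM-scaled CPM of HLA-B, HLA-C, HLA-E and HLA-F stacked for each library, DDR1 libraries on the left. The whole bar runs from 651 to 1000 CPM in the DDR1 group and from 550 to 1209 CPM in controls, and HLA-B is the part that varies most.

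Reads of similar HLA genes can be shared out by the authors' counting. Expected counts of HLA-B, HLA-C, HLA-E, HLA-F and TAP1 were not whole numbers in all 8 libraries, those of TAP2 in 4, of TAPBP in 1, and of B2M and NLRC5 in 0. In the GENCODE release 29 coding sequences, HLA-B and HLA-C were 90.4% identical. Among windows of 100 coding bases, 0.0% of HLA-B, 0.4% of HLA-C, 1.5% of HLA-E and 0.0% of HLA-F windows occurred exactly in another gene, and the alleles of T24 were not compared. For TAP2, 91.3% of windows occurred in AL669918.1, an overlapping gene that held 164.11 expected counts in all 8 libraries together. The annotated HLA-B gene also spans HLA-C, with 35 shared exon bases. For TAP1, 0.0% of coding windows occurred in another gene, and untranslated bases were not searched. On the opposite strand, TAP1 shares 456 exon bases with PSMB8-AS1, and HLA-F shares 535 with HLA-F-AS1 and 701 with AL645939.1. What made the counts fractional was not tested.

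B2M (ENSG00000166710, chromosome 15, 44711487 to 44718877, plus strand), the light chain of every class I molecule, had a fold change near 0. It held 765, 1285, 1063 and 629 CPM in DDR1 replicates 1 to 4, against 1079, 1158, 636 and 975 CPM in control replicates 1 to 4. Control replicate 3, high for HLA-C and both TAP genes, was among the lowest libraries for B2M. The fitted log2 fold change was -0.04 ± 0.27 (SE; edgeR adjusted p = 0.9998). The log2 ratio of HLA-B to B2M counts within a library was -2.17 ± 0.707 in the DDR1 group and -1.49 ± 0.907 in controls. It ran from -2.73 to -1.14 in the DDR1 group and from -2.73 to -0.74 in controls, so the ranges overlapped.

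TAP1 (ENSG00000168394, chromosome 6, 32845209 to 32853978, minus strand), the transporter subunit whose promoter holds overlapping matches to the response element, held 77.6, 47.4, 39.1 and 41.4 CPM in DDR1 replicates 1 to 4. In control replicates 1 to 4 it held 70.7, 38.2, 95.5 and 84.7 CPM. DDR1 replicate 1 again lay with the controls, and control replicate 2 with the other DDR1 libraries. edgeR gave a log2 fold change of -0.49 ± 0.31 (SE; edgeR adjusted p = 0.9998).

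TAP2 (chromosome 6, 32821833 to 32838780, minus strand), the other transporter subunit, held 68.8, 55.0, 39.6 and 44.6 CPM in DDR1 replicates 1 to 4, against 57.8, 53.0, 91.8 and 71.4 CPM in control replicates 1 to 4. Control replicate 3 was highest, and DDR1 replicates 3 and 4 were lowest. The log2 ratio of the DDR1 group over controls was -0.40 ± 0.23 (SE; edgeR adjusted p = 0.9998).

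TAPBP (chromosome 6, 33299694 to 33314387, minus strand), the tapasin gene, held 141, 201, 200 and 274 CPM in DDR1 replicates 1 to 4, against 193, 219, 205 and 221 CPM in control replicates 1 to 4. The DDR1 libraries held both the lowest and the highest value. The fitted log2 fold change was -0.04 ± 0.20 (SE; edgeR adjusted p = 0.9998). Its r to TAP1 across libraries was -0.42 (exact permutation p = 0.359, adjusted 0.461; rho -0.12, exact permutation p = 0.793, adjusted 0.865), and -0.49 without the 2 farthest libraries.

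NLRC5 (ENSG00000140853, chromosome 16, 56989485 to 57083531, plus strand), the transactivator, held 26.4, 21.6, 20.6 and 29.9 CPM in DDR1 replicates 1 to 4. In control replicates 1 to 4 it held 23.0, 16.8, 53.5 and 44.9 CPM. Control replicates 3 and 4, which share a title prefix and have no lane code, stood above all others, and control replicate 2 was lowest. edgeR gave a log2 fold change of -0.49 ± 0.35 (SE; edgeR adjusted p = 0.9998). Per kb of exon NLRC5 was the lowest of the 9, at 1.99 ± 0.35 in the DDR1 group and 2.79 ± 1.41 in controls. B2M was the highest, at 154 ± 48.6 in the DDR1 group and 158 ± 37.9 in controls. HLA-E was the next, at 134 ± 19.3 in the DDR1 group and 129 ± 30.2 in controls, and the spreads overlapped. The divisor was 6079 annotated exon bases for B2M and 2975 for HLA-E, so the distance between them depends on the annotation.

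The difference between groups depended on which libraries were compared. Without the library labelled DDR1 replicate 1, 5 of the 9 genes (HLA-B, HLA-C, HLA-F, TAP1 and TAP2) were lower at an unadjusted p under 0.05, against 2.53% of all genes, with HLA-B at -1.09. In that fit 0 were higher, against 2.23%, and 7 of 9 lay below 0, against 51.6%. The library left out was the highest of its group for each of those 5 genes. DDR1 replicates 2, 3 and 4, which stay in that fit, share a title prefix, so its p-values may treat related libraries as separate. Without the 2 lane 7 controls 5 genes were lower (HLA-B, HLA-C, TAP1, TAP2 and NLRC5), against 2.66%, with NLRC5 at -0.97 ± 0.21 (SE). There 0 were higher, against 2.95%, and 8 of 9 lay below 0, against 49.0%. The controls left in that fit share a title prefix too. Without the 2 controls that have no lane code the count was 0 of 9 lower, against 1.57%, and 0 higher, against 1.4%. There 6 of 9 lay below 0, against 46.6%, the median was -0.08, and HLA-B stood at -0.32, HLA-C at 0.03 and NLRC5 at 0.31. Without control replicate 2 the count was 4 of 9 lower (HLA-B, HLA-C, TAP1 and NLRC5), against 3.19% of all genes, and the median was -0.57. Without control replicate 3 the median was -0.22, with TAP1 at -0.32, TAP2 at -0.22 and NLRC5 at -0.20. With all 8 libraries, limma-voom with library quality weights had 4 of 9 lower at an unadjusted p under 0.05, against 5.2% of all genes. DESeq2 had 1, against 2.51%, and edgeR with no filter on low counts had 1, against 2.09%. When libraries sharing a prefix in their titles were added up, the median was -0.14 and HLA-B stood at -0.29. The DDR1 group then held DDR1 replicate 1 and the sum of DDR1 replicates 2, 3 and 4. Control replicates 3 and 4 were summed too. No gene of the set passed an adjusted p under 0.05 in any of these fits. Several of the genes vary together, so the counts of lower genes are not counts of independent results.

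The controls themselves differed along the same split. Both controls with no lane code lay above both lane 7 controls for 7 of the 9 genes, against 18.9% of all genes tested, B2M and TAPBP being the exceptions. NLRC5 averaged 49.2 CPM in control replicates 3 and 4 and 19.9 CPM in replicates 1 and 2, a ratio of 2.47. For HLA-B the averages were 454 CPM in replicates 3 and 4 and 267 CPM in replicates 1 and 2, a ratio of 1.70. Between groups, the mean of HLA-B in the DDR1 group was 0.592 times that in controls. Whether lane, title prefix or tumour set these values was not tested.

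**Figure D3:**
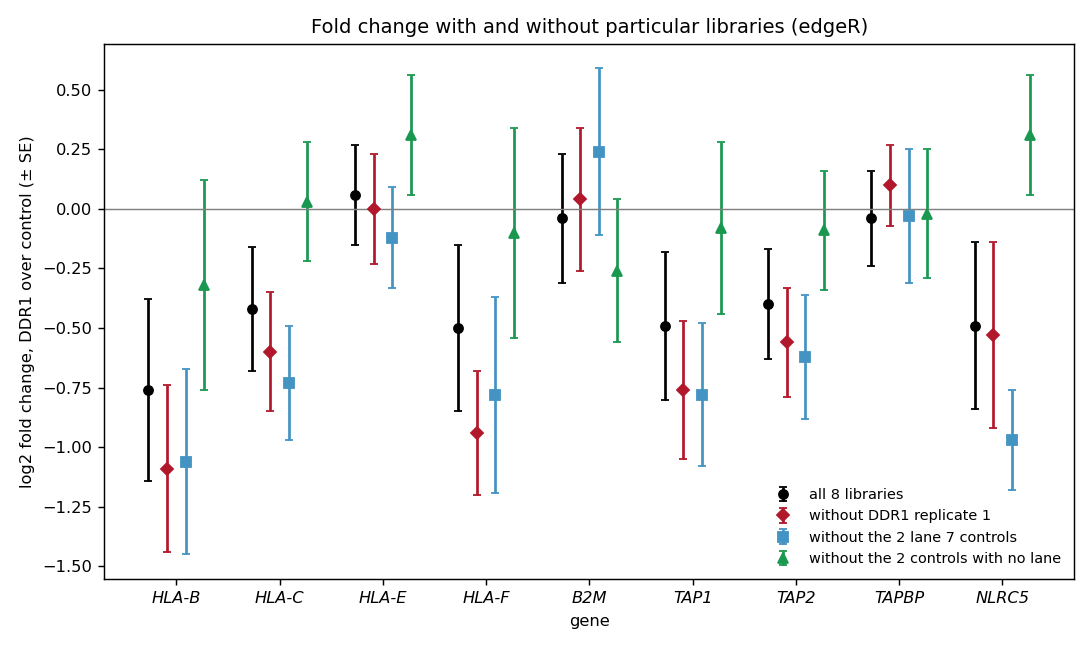
Log2 fold change, DDR1 over control, with its standard error for each of the 9 genes in 4 edgeR fits that use all 8 libraries or leave out those named. HLA-C runs from -0.73 without the lane 7 controls to 0.03 when control replicates 3 and 4 are left out, and NLRC5 from -0.97 to 0.31.

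Across the 8 libraries HLA-B, HLA-C, HLA-F, TAP1 and TAP2 had positive r with one another. Of 36 pairs among the 9 genes, 22 had a Pearson's r above 0 for log2 CPM, the median was 0.56, and 10 passed an exact two-sided permutation test with Benjamini-Hochberg adjustment over the 36 pairs. By Spearman's rho 0 pairs passed after adjustment. Of the 10, 9 joined genes among those 5, and the other joined HLA-C and NLRC5.

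HLA-F and TAP1 had an r of 0.95 (exact permutation p = 0.00352, adjusted 0.0214) and a rho of 0.74 (exact permutation p = 0.0458, adjusted 0.127). Without the 2 libraries farthest from the HLA-F median, r was 0.95. TAP1 and TAP2 had an r of 0.90 (exact permutation p = 0.000496, adjusted 0.0107) and a rho of 0.93 (exact permutation p = 0.00223, adjusted 0.0771), and r was 0.94 without the 2 farthest libraries. HLA-C and NLRC5 had an r of 0.85 (exact permutation p = 0.00742, adjusted 0.0286) and a rho of 0.76 (exact permutation p = 0.0368, adjusted 0.11). Without control replicates 3 and 4 that r was 0.38, so the relation rests on those libraries.

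B2M stood apart, with an r of -0.67 to HLA-E (exact permutation p = 0.0547, adjusted 0.123; rho -0.69, exact permutation p = 0.0694, adjusted 0.147). The r without the 2 farthest libraries was -0.81. Its r to HLA-B was -0.06 (exact permutation p = 0.883, adjusted 0.883; rho -0.07, exact permutation p = 0.882, adjusted 0.907), and -0.76 without the 2 farthest libraries. These permutation tests treat the 8 libraries as exchangeable, although controls differed by lane code and libraries share title prefixes.

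With each gene centred by group, the median r over the 36 pairs was 0.65 and the 10 pairs among HLA-B, HLA-C, HLA-F, TAP1 and TAP2 ran from 0.69 to 0.94. With each gene centred by group and lane code, the median was 0.36 and those 10 pairs ran from 0.54 to 0.95. HLA-C and NLRC5 had 0.84 when centred by group and 0.44 when centred by group and lane code. These centred values have no test and were added after the data were seen.

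**Figure D4:**
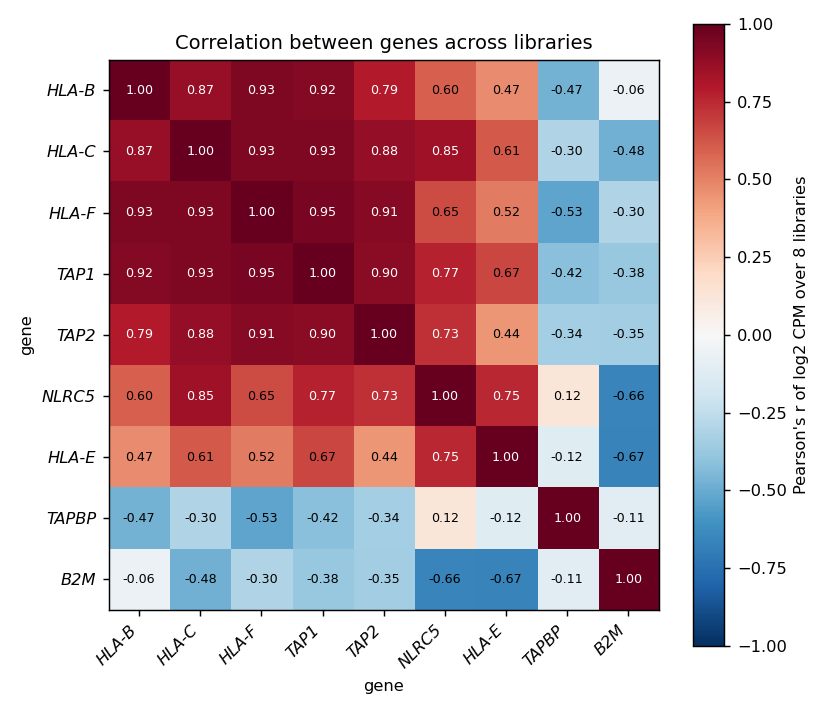
Pearson's r of log2 CPM over 8 libraries for every pair of the 9 genes, from blue (negative) to red (positive). The block of HLA-B, HLA-C, HLA-F, TAP1 and TAP2 holds values from 0.79 to 0.95, while B2M and TAPBP have negative values with all 5 of those genes.

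The gene most like the set, by Pearson's r to the mean of its scaled log2 CPM over 8 libraries, was IRF7, an interferon-induced transcription factor, at 0.991. IRF7 averaged 33.9 ± 8.82 CPM in the DDR1 group and 61.9 ± 29.8 CPM in controls, with a log2 fold change of -0.87 ± 0.37 (SE; edgeR adjusted p = 0.9998, unadjusted p = 0.0426). The next 9 were GLA, MARS, MFSD5, AC073896.1, MYH3, HIST3H2A, CMTR1, AC012073.1 and INTS3, with r from 0.963 to 0.940. These 10 are the top of a ranking of all other tested genes over only 8 libraries, and the ranking has no test. Because they were picked for following the set, their fold changes are not independent of it. The mean scaled level was highest in control replicates 4 and 3, at 0.91 and 0.81, and lowest in DDR1 replicate 3 and control replicate 2, at -0.65 and -0.63.

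Other genes of the pathway did not pass either, with 0 called in each list. Among 9 tested class I and class I-like genes outside the set, 7 had a log2 fold change below 0 and the median was -0.28. MICB, a stress-induced ligand of the NKG2D receptor, averaged 10.1 ± 3.55 CPM in the DDR1 group and 17.2 ± 4.32 CPM in controls, with a log2 fold change of -0.76 ± 0.28 (SE; edgeR adjusted p = 0.9998, unadjusted p = 0.0223). The class I pseudogenes HLA-L and HLA-J had log2 fold changes of -0.46 and -0.62. HLA-H, another class I pseudogene, had 0.23, and MICA, the relative of MICB, had 0.16; both were picked with their values known.

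Loading and trimming genes were centred near 0. Of 7 tested, 5 had a log2 fold change below 0, with a median of -0.01. The chaperone CANX averaged 934 ± 96.1 CPM in the DDR1 group and 790 ± 210 CPM in controls, and CALR, the calreticulin gene, averaged 707 ± 129 CPM in the DDR1 group and 782 ± 125 CPM in controls. UGGT1, the glucosyltransferase of glycoprotein quality control, averaged 115 ± 28.9 CPM in the DDR1 group and 126 ± 7.74 CPM in controls.

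The immunoproteasome and activator list, 5 genes, had a median of -0.03. PSMB9, the subunit gene that lies beside TAP1, averaged 23.6 ± 9.45 CPM in the DDR1 group and 29.1 ± 4.15 CPM in controls. PSME1 and PSME2, subunits of the proteasome activator, had log2 fold changes of 0.56 and 0.16. PSME1 held 217 CPM in DDR1 replicate 1 and at most 119 CPM in the other DDR1 libraries, against 71.4 to 104 CPM in controls. The library labelled DDR1 replicate 1 was the highest of its group for all 5 genes of the list, and without it the list median was -0.29. The standard subunits PSMB5, PSMB7 and PSMB6 had 0.31, 0.05 and -0.03.

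Among 15 tested interferon and NF-kB regulators, 12 had a log2 fold change below 0, with a median of -0.14, and 2 were lower at an unadjusted p under 0.05, against 2.24% of all genes. They were NFKB1, an NF-kB subunit, at 50.5 ± 7.47 CPM in the DDR1 group and 69.5 ± 11.7 CPM in controls, and IRF2, at 19.3 ± 3.99 CPM in the DDR1 group and 27.3 ± 3.18 CPM in controls. For 1 of the 15, IRF2, the groups did not overlap, against 2.4% of all genes. IRF1, which acts at class I response elements, averaged 44.9 ± 5.28 CPM in the DDR1 group and 51.4 ± 5.66 CPM in controls, with a log2 fold change of -0.20. SOCS1, a feedback inhibitor of interferon signalling, averaged 0.481 ± 0.0592 CPM in the DDR1 group and 0.888 ± 0.538 CPM in controls. Its counts were low, from 7 to 31 expected counts per library. Control replicates 1 to 4 held 0.388, 0.459, 1.33 and 1.37 CPM, so only the controls with no lane code were higher.

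**Figure D5:**
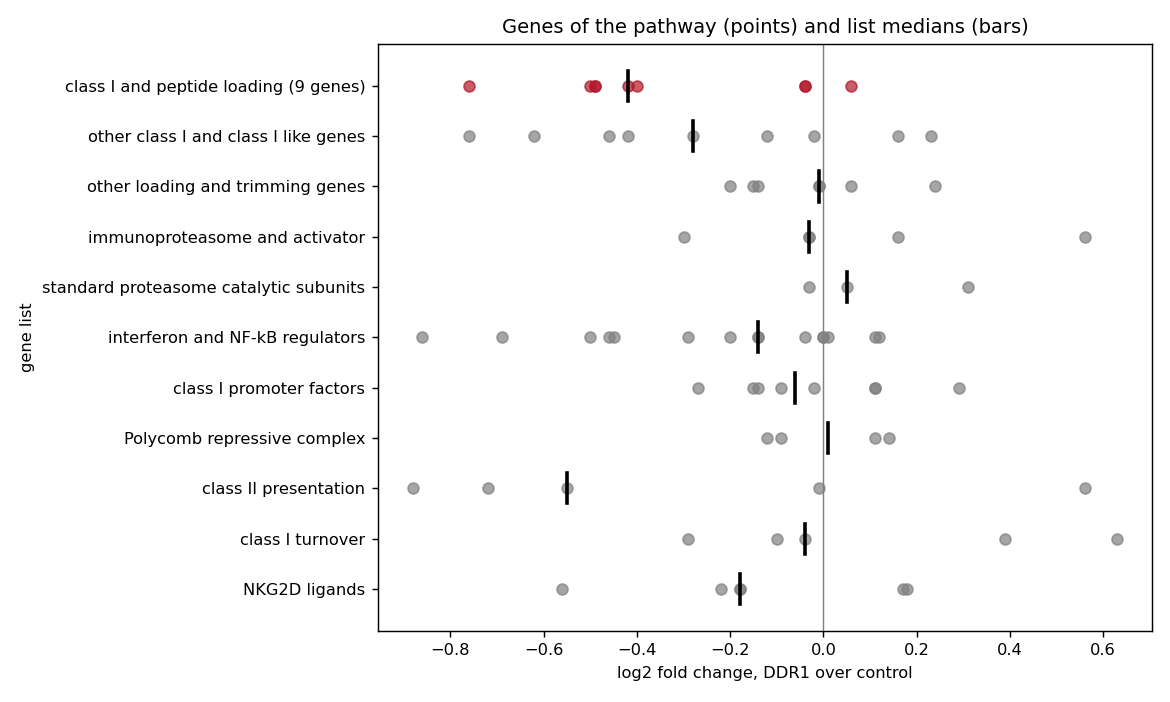
Log2 fold change, DDR1 over control, of each tested gene (points) in the 9-gene set and the other lists of the pathway, with the median of each list as a black bar. The set has a median of -0.42 and class II presentation genes -0.55, while the loading, proteasome, promoter factor and Polycomb lists have medians from -0.06 to 0.05.

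Factors that act with NLRC5 at class I promoters had a median of -0.06 over 8 genes, with RFX5 at -0.27, NFYB at 0.29 and NFYA at -0.15. The 4 Polycomb genes, known as repressors of class I genes in some tumours, had a median of 0.01, with EZH1 at 0.14, EED at -0.12 and SUZ12 at 0.11. The 5 class I turnover genes had a median of -0.04, with MARCH9 at 0.39, TMEM127 at -0.29 and MARCH4 at 0.63. The 6 genes listed as NKG2D ligands, which leave out MICA and MICB, had a median of -0.18. Among them ULBP2 had -0.22, RAET1E -0.56 and ULBP3 -0.18.

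Class II presentation genes were tested for 5 of 10 members, with a median of -0.55 and 3 lower at an unadjusted p under 0.05, against 2.24% of all genes. HLA-DPA1 averaged 5.65 ± 1.03 CPM in the DDR1 group and 10.4 ± 3.21 CPM in controls. CD74, the invariant chain, averaged 41.3 ± 9.95 CPM in the DDR1 group and 68.2 ± 25.1 CPM in controls, and HLA-DPB1 averaged 9.20 ± 2.03 CPM in the DDR1 group and 13.5 ± 2.73 CPM in controls. CIITA, the class II counterpart of NLRC5, lay between 2.90 and 3.60 CPM in DDR1 libraries and between 2.94 and 3.51 CPM in controls. Of 7 interferon genes listed, 1 passed the filter on low counts.

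Of the 9 genes 7 lie on chromosome 6 between the start of HLA-F and the end of TAPBP, 29722775 to 33314387. The 122 other tested genes there, which include DDR1 itself, had a median of 0.02, with 58 below 0, which centres the rest of the region near 0. They ran from -1.83 to 2.44. At an unadjusted p under 0.05 in edgeR, 6 were lower and 3 higher, against 2.24% and 1.93% of all genes.

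Genes listed as markers of other cells varied between libraries. Summed leukocyte markers ran from 34.1 to 98.8 CPM in DDR1 libraries and from 18.7 to 57.7 CPM in controls. CD68 had the highest mean over all 14 leukocyte markers in 8 libraries, but S100A8 made up most of the sum in DDR1 replicate 2, at 75.4 of 98.8 CPM, and in control replicate 2, at 41.1 of 57.7 CPM. Summed endothelial markers ran from 9.08 to 76.1 CPM in DDR1 libraries and from 8.65 to 55.9 CPM in controls, CDH5 having the highest mean. Fibroblast markers, of which COL1A1 had the highest mean over 8 libraries and COL3A1 the highest in the DDR1 group, reached 52.9 CPM in DDR1 libraries and 62.8 CPM in controls. Markers of the line, of which VIM had the highest mean over 8 libraries and KRT18 a higher mean than VIM in controls, ran from 1264 to 3685 CPM in DDR1 libraries and from 1591 to 2322 CPM in controls. Control replicate 4, the highest library for HLA-B, had the lowest leukocyte sum, at 18.7 CPM, the highest fibroblast sum, at 62.8 CPM, and the second highest endothelial sum, at 55.9 CPM. The tumours grew from a human line, and removal of mouse reads is not given. Counts of these human genes therefore do not show that such cells were present. Their relation to the class I values was not tested.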

How the data were processed

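Expression was measured by RNA sequencing of whole xenograft tumours. Per the labels' protocols, poly-T beads captured the mRNA before cDNA synthesis; strand marking is not mentioned. Per the submitters' processing notes, FastQC 0.11.9, Trim Galore 0.6.4, STAR 2.7.5, RSEM 1.3.1 and the GRCh38 build were used. Neither the annotation release nor any removal of mouse reads is given in the sources used here.

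The deposited expected counts are estimated per gene and not scaled to depth; they were rounded to whole numbers. The deposited TMM-normalized values were already on a log2 scale and served one alternative, without the added 1 planned for linear values.

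Genes passing edgeR's filterByExpr (minimum count 10), 18973 of 58302, were scaled by TMM and tested with the quasi-likelihood test of edgeR (version 4.0.16, under R 4.3.3 with limma 3.58.1) with Benjamini-Hochberg adjustment over all of them. DESeq2 1.42.0 was an alternative. Levels are CPM scaled by TMM; log2 CPM used a prior count of 2. Symbols and coordinates come from GENCODE release 29, to which 58039 identifiers matched.

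Named genes were DDR1, the 9 genes of the set, IRF1 and 1 gene not reported here, up to 3 genes with the smallest p-values of each pathway list, the most abundant gene of each marker list and the 10 genes most like the set; others were picked with their values known. The 9 genes and the lists were chosen with earlier results of these data known. In simulated counts with the spread of this comparison over 18973 genes, edgeR recovered 7 of 100 genes changed 2-fold and 55 of 100 changed 4-fold.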

Additional observations from a re-analysis of the deposited data

Results flagged for a closer look

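Values far from the rest of a group of 4 were looked for in 26 sets, and chance sets apart about 5% of such groups. The library labelled DDR1 replicate 1 was set apart as the highest of its group for HLA-C, at 142 CPM, and for HLA-F, at 61.1 CPM. It was also set apart for the sum of HLA-B, HLA-C, HLA-E and HLA-F, at 1000 CPM. These 3 are not independent, since the sum holds both genes. This is the library whose DDR1 level, 159 CPM, lay inside the control range.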

How the results depend on the processing

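No gene of the set was called under any alternative run, and HLA-B, HLA-F, TAP1 and TAP2 had a log2 fold change below 0 in all of them, though HLA-F was -0.02 with libraries of one title prefix added up. DESeq2 called 15 genes of all tested and 0 of the set. DDR1 had a log2 fold change of 1.31 without the lane 7 controls, where it no longer passed the unadjusted threshold. Direction turned for values near 0: with library quality weights in limma-voom HLA-E was -0.06 and B2M 0.17, and without the lane 7 controls HLA-E was -0.12 and B2M 0.24. Without the controls that have no lane code HLA-C was 0.03 and NLRC5 0.31. With 1 library left out HLA-E ran from -0.09 to 0.16, B2M from -0.23 to 0.11, TAPBP from -0.20 to 0.10, HLA-B from -1.09 to -0.50 and the log2 ratio of summed heavy chains from -0.49 to -0.16. The median of the set ran from -0.57 without control replicate 2 to -0.22 without control replicate 3, NLRC5 from -0.72 to -0.20, TAP1 from -0.76 to -0.32 and TAP2 from -0.56 to -0.22. The median correlation ran from 0.45 to 0.77, and was 0.36 when centred by group and lane code. The causes were not tested. No paired analysis was possible because replicate numbers follow accession order and pair no libraries.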
